A study of Mus musculus with 46 samples.

Results

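Whole blood from mice given pooled immunoglobulin into a vein (IVIG) was compared with whole blood from mice that received phosphate-buffered saline (PBS) instead. The comparison used 10 of the 46 bulk RNA libraries of the series, 5 per group. Treatment was taken from the condition field and title of the samples. A separate treatment field, which often differs from them, was not used. The mice belong to a model of mucous membrane pemphigoid, in which antibodies against a laminin detach the epithelium from its basement membrane and blisters form. The labels give neither strain, age, dose nor time after treatment for blood. They do not say whether any group lacks the disease model, or whether each library is a separate animal. Each p-value therefore measures only the spread between these libraries.

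The 10 libraries were chosen by an inferred order of names. The column names of the deposited table were written as in the sample descriptions, sorted by character code and given to the columns in the order in which these stand. The columns then named as blood were grouped by title into IVIG and PBS. Titles with the prefix S3 and animal numbers 1 and 5 give PBS in blood and IVIG in neutrophils, and number 2 the reverse. Numbers 9, 10, 13 and 14 of that prefix have the same treatment in both. Whether equal numbers mean the same mouse is not stated. This order is stated nowhere in the sources used here, and it rests on the position of the columns. It moves 29 of the 34 blood, neutrophil, monocyte and skin names, and 22 of these change treatment. Values under the deposited names are therefore given beside those of the gene lists and of the genes described library by library. There the 10 columns include 4 without the haemoglobin of blood.

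Red cells lose their nucleus before they enter the blood, and the youngest of them, reticulocytes, still carry messenger RNA that is mostly haemoglobin. Haemoglobin is made of alpha chains (genes Hba-a1 and Hba-a2) and beta chains (Hbb-bs and Hbb-bt in adults). RNA from white cells and platelets makes up a small remainder of such a sample. IVIG is used against autoantibody diseases, and its proposed actions in the field involve Fc gamma receptors, which bind immunoglobulin G on phagocytes, B cells and natural killer (NK) cells.

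Haemoglobin separated the columns. Under the re-sorted names, globin genes held 89.2 to 98.3% of the counts in all 10 blood columns and 0.000677 to 0.577% in the other 36. Under the deposited names, only 6 of the 10 columns named blood were of this kind, and the share ran from 0.00284 to 93.9%. Of the re-sorted blood columns, 2 carried neutrophil names and 2 skin names as deposited. As deposited, 2 carried the other treatment: PBS replicate 1 had a blood IVIG name and IVIG replicate 1 a neutrophil PBS name. Blood columns that keep the same sample under both orders numbered 5 (PBS replicates 3, 4 and 5 and IVIG replicates 4 and 5). Over the 34 columns outside the Ics experiment, whose names do not move, a class set by globin, keratin (Krt5, Krt14) and calprotectin (S100a8, S100a9) levels was that of the named tissue in 34 under the re-sorted names and in 25 under the deposited names. A column in none of these 3 classes was counted as monocyte, with no monocyte marker required. In 1 such column Csf1r, the growth factor receptor of monocytes, was at 25.4 CPM, against 154.7 to 282.8 CPM in the 10 columns re-sorted as neutrophil. By these classes, the deposited blood names of PBS held 1 neutrophil and 1 skin column, and those of IVIG 1 monocyte and 1 skin column. Values under the deposited names thus compare unlike mixes of tissue. Class limits were chosen after the values were seen, so haemoglobin is a check of tissue and not of treatment.

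**Figure D1:**
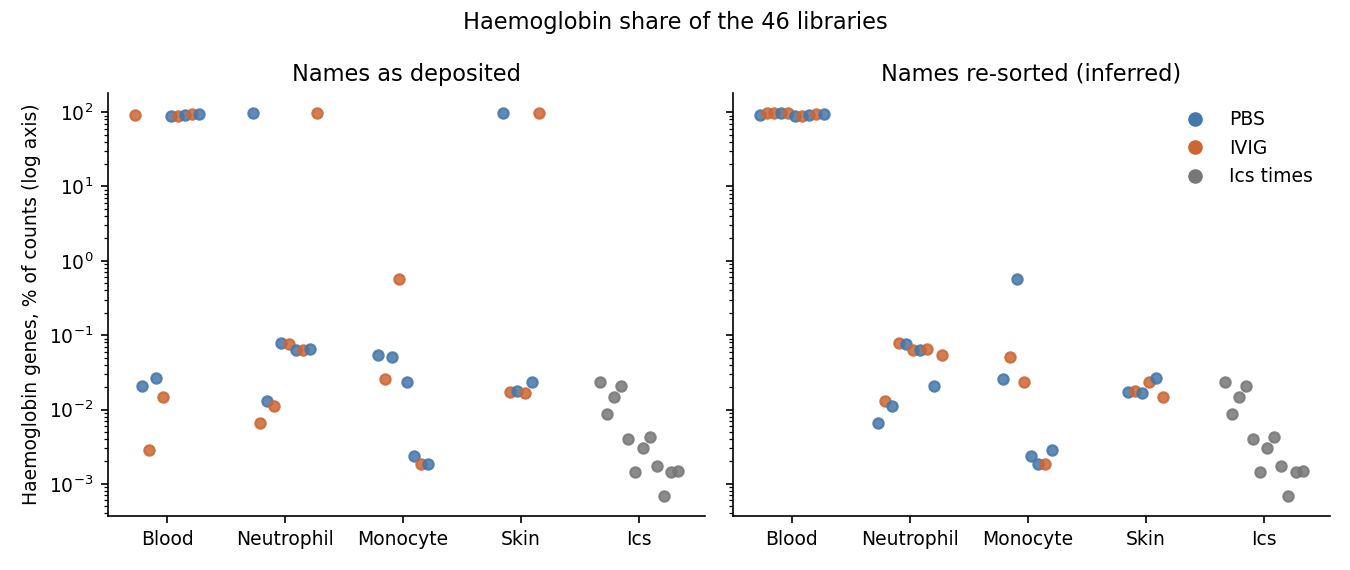
Percent of counts in globin genes (log axis) for each of the 46 columns, placed by tissue under the deposited names (left) and the re-sorted names (right), coloured by treatment. On the right all 10 blood columns lie at 89.2% or above and no other column exceeds 0.577%, while on the left 4 columns of that kind carry neutrophil or skin names.

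A second property of the columns, examined after the values were seen, bore on the title series, a prefix (S2, S3 or S5) in the sample titles. Counts of Xist, the RNA that silences an X chromosome in females, were set against summed counts of the Y-linked genes Ddx3y, Eif2s3y, Kdm5d and Uty. Under the re-sorted names, all 14 columns of series S5 had more Y-linked than Xist counts, and all 20 columns of S2 and S3 had more Xist, so 34 of 34 kept to their series. Under the deposited names 22 of 34 did. Among the blood columns, PBS replicate 1 and IVIG replicate 2 belong to S5 and the other 8 to S3, so the groups hold 1 library of S5 each. This check, too, bears on series and not on treatment.

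Totals were 27801539 to 43176537 estimated counts per blood library, but counts outside the globin genes were only 594412 to 3452900, and these set the precision for every other gene. The library of IVIG replicate 2 stood apart. It had the fewest counts outside globins and 6783 genes with at least 5 counts, against 9191 to 12268 in the others. Its median Spearman correlation with the other libraries across genes was 0.766, against 0.829 to 0.873 for each of the others, where genes are not independent replicates. For the lists described and the genes named by rule, log2 values without it are given where they differ by more than 1.5 times or in sign. Skin markers were at or near 0: the 12 skin genes summed to 11 to 228 counts per library, and 4 to 10 of them were at 0 in a library.

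Globin genes came first, as the product that defines the tissue. The haemoglobin share was 92.7, 96.8, 89.4, 92.0 and 93.3% in PBS replicates 1 to 5. In IVIG replicates 1 to 5 it was 96.3, 98.3, 96.2, 89.2 and 93.9%. IVIG replicate 4 had the lowest share of all 10 and IVIG replicate 2 the highest, and the groups overlapped. The means were 94.8 ± 3.50% with IVIG and 92.8 ± 2.67% with PBS (SD, n = 5 and 5), a difference of 1.94 percentage points (exact two-sided permutation test, p = 0.333, where the smallest possible p is 0.00794). Log2 counts outside globins differed by -0.59 (exact two-sided permutation test, p = 0.357). By the deposited names the difference in share was 0.196 points (exact permutation p = 0.905). In bulk RNA, fewer cells of a type and less RNA per cell cannot be told apart, here and in every value that follows.

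The chains were not in a fixed ratio. Hba-a1 held 12.7, 14.1, 20.6, 25.7 and 31.7% of the counts in PBS replicates 1 to 5. In the IVIG libraries it held 28.3, 6.96, 21.4, 26.4 and 20.8%. Hbb-bs held 54.5, 54.7, 40.2, 37.9 and 35.4% with PBS and 39.6, 59.0, 42.6, 33.9 and 40.5% with IVIG. The lowest Hba-a1 share and the highest Hbb-bs share were both in IVIG replicate 2, and the groups overlapped for both genes. Hba-a1 and Hba-a2 are near-identical copies, so the split of reads between them is uncertain, and the same holds for Hbb-bs and Hbb-bt.

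Across all genes, normalised read counts were compared as TMM-scaled CPM, a library's counts brought to a fixed total and to a common level for the typical gene. By edgeR's quasi-likelihood test 0 of 9457 genes passed a Benjamini-Hochberg adjusted p of 0.05 (0% called), and the smallest adjusted p was 0.746. At an unadjusted p under 0.05 there were 530 genes (5.6% of those tested), 382 higher with IVIG (4.04%) and 148 lower (1.56%). Limma voom with quality weights also gave 0 genes. DESeq2 called 25 of the 1747 genes to which it gave an adjusted p (1.43%), 24 of them higher. With the names as deposited edgeR gave 0 of 11339 genes (0% called), with 81 at an unadjusted p under 0.05. Without the expression filter 11 of 21257 genes passed (0.0517%), named as predicted genes, pseudogenes or, in Gm45713, a gene model that overlaps others. Scaling by library totals alone moved the median log2 change of all genes to -0.61. On that scale the medians were 0.18 for red cell membrane, 0.06 for globin, -0.14 for reticulocyte, -0.43 for interferon-stimulated, -0.22 for NK, 0.13 for regulatory T, -0.86 for B cell, -1.12 for mature neutrophil and -1.37 for Fc gamma receptor genes. Directions below are relative to the typical gene. Since no gene passed in edgeR, what follows gives values and not changes.

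Among the 36 gene lists, that of the red cell membrane and its skeleton had the largest share of members at an unadjusted p under 0.05. Of 19 listed genes 18 were tested, and 12 of these were higher with IVIG at an unadjusted p under 0.05 (background 4.04%) and 0 lower. Their median log2 change was 0.99, against -0.01 over all genes tested, and 16 of 18 values were positive where 48.7% of all genes were. Under the deposited names the median was 0.33, with 12 of 18 positive and 0 at that unadjusted p.

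Slc4a1 (chromosome 11, 102348824 to 102366203, GRCm38), the anion exchanger that anchors the membrane skeleton, had 11.4, 17.9, 20.9, 8.82 and 18.8 CPM in PBS replicates 1 to 5. The IVIG replicates 1 to 5 had 61.0, 79.4, 116.7, 15.8 and 41.2 CPM. Of the IVIG libraries, 4 lay above every PBS library and IVIG replicate 4 lay among them. The log2 change was 2.01 ± 0.46 (SE, n = 5 and 5), with an edgeR adjusted p of 0.746 and a DESeq2 adjusted p of 0.00325. As deposited, the names gave 0.47.

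Tmod1 (chromosome 4, 46038935 to 46116032), which codes tropomodulin, the cap on the short actin filaments of the membrane skeleton, had 2.17, 0.708, 2.10, 1.84 and 1.60 CPM with PBS. In the IVIG libraries it had 5.16, 19.8, 8.48, 1.62 and 7.56 CPM. IVIG replicate 4 again lay within the PBS range and the other 4 above it. Its log2 change was 2.29 ± 0.52 (edgeR adjusted p = 0.746), or 1.73 without IVIG replicate 2, and 0.37 under the deposited names.

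Further members lie beside these in the membrane. Epb42, which codes protein 4.2, a partner of the anion exchanger, had 0.922 to 2.83 CPM with PBS (1.23 CPM in the middle library) and 2.02 to 8.10 CPM with IVIG. Only PBS replicate 2 reached into the IVIG range, and the deposited names gave a log2 change of 1.17. Add2, which codes beta adducin of the membrane skeleton, was at 1.61 ± 0.48 on the log2 scale, and at 0.45 under the deposited names. The blood group gene Ermap, chosen after its values were seen, was at 1.80 ± 0.61.

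**Figure D2:**
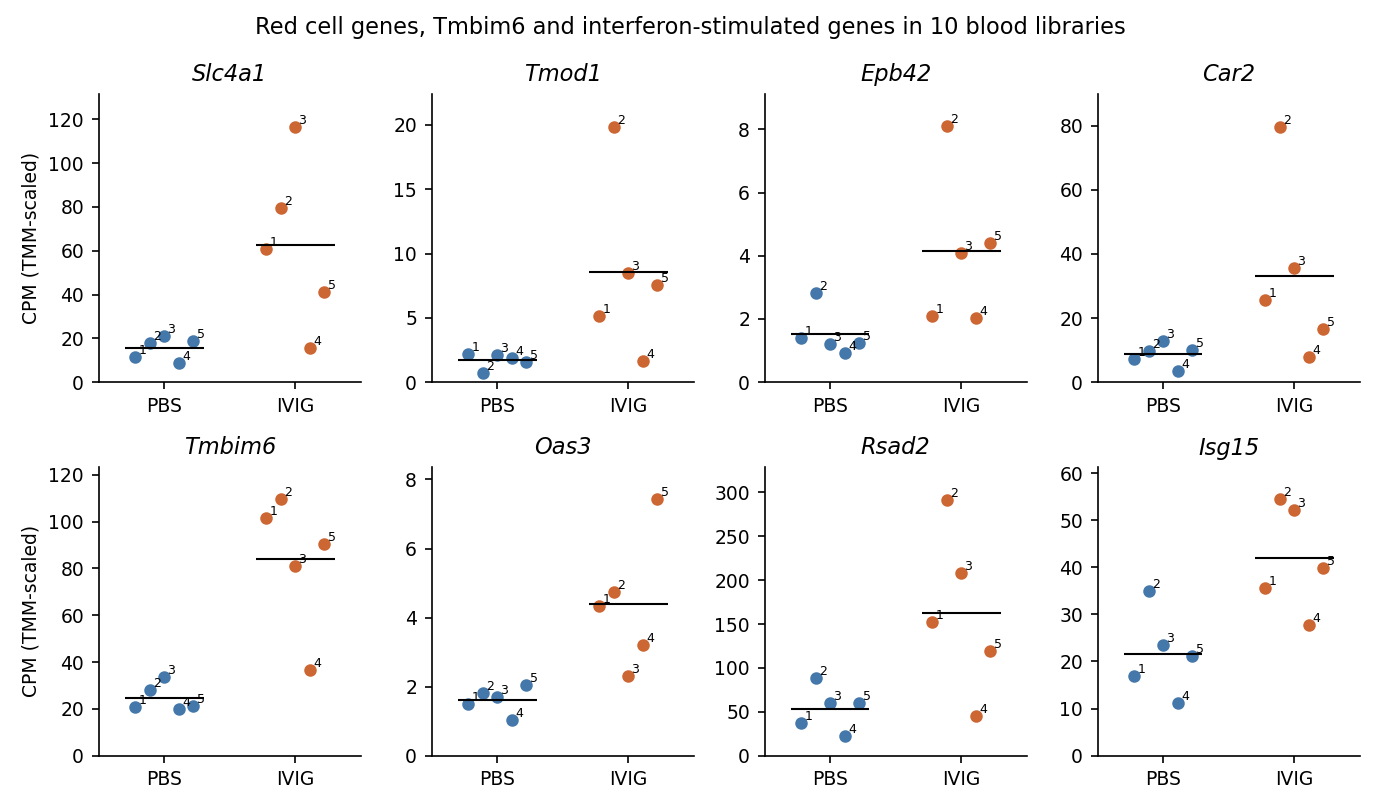
TMM-scaled CPM (linear axes from 0) of 8 genes in each blood library under the re-sorted names, with points numbered by replicate and a line at the group mean. For Slc4a1, Tmod1 and Car2 the 4 IVIG libraries other than replicate 4 lie above all PBS libraries, and for Tmbim6 and Oas3 all 5 do.

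Genes of late reticulocyte maturation had a median of 0.76, with 14 of 15 tested members positive (48.7% of all genes were). At an unadjusted p under 0.05, 6 were higher (background 4.04%) and 0 lower. The deposited names gave this list a median of 0.26. Car2, a carbonic anhydrase, had 7.15, 9.79, 12.8, 3.53 and 10.0 CPM with PBS. With IVIG it had 25.7, 79.6, 35.7, 7.87 and 16.6 CPM, with IVIG replicate 4 inside the PBS range and the other 4 above it. Its log2 change was 1.93 ± 0.53, and 0.10 under the deposited names. Ube2l6, an enzyme that attaches ISG15 and is abundant in late erythroid cells, was at 1.39 ± 0.44 (0.89 without IVIG replicate 2), and Bnip3l, which removes mitochondria from reticulocytes, at 1.36 ± 0.44. The erythroid transcription factor genes Tal1 and Nfe2 were at 0.33 and 0.10, named after their values were seen.

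Haem synthesis was less one-sided than the membrane genes. Of 15 genes tested, 3 were higher (background 4.04%) and 1 lower (background 1.56%) at that unadjusted p. The median was 0.33, or 0.21 without IVIG replicate 2, and -0.11 under the deposited names. Urod, an enzyme midway in the pathway, was at 1.23 ± 0.36, and Fech, which inserts the iron, at 0.75 ± 0.31. Alas2, the first and rate-limiting enzyme in red cells and named after its value was seen, was at 0.37 ± 0.36. The lower member was Ireb2, an iron-sensing regulator, at -0.75 ± 0.29. All 8 tested globin genes had positive values (48.7% of all genes had), with a median of 0.99, and 4 were higher at an unadjusted p under 0.05 (background 4.04%). Under the deposited names their median was 0.47. These included the embryonic beta genes Hbb-bh1 at 1.02 ± 0.34 and Hbb-y at 0.96 ± 0.35, and the adult gene Hbb-bt at 1.44 ± 0.50.

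The globin share of a library ran with these genes among some libraries and not among others. IVIG replicate 4, lowest in haemoglobin, was the IVIG library nearest to PBS for Slc4a1, Tmod1 and Car2, and IVIG replicate 2, highest in haemoglobin, was the highest for Tmod1, Epb42 and Car2, while IVIG replicate 3 was the highest for Slc4a1. Among the PBS libraries, replicate 2, highest in haemoglobin, had the lowest Tmod1 level and the highest Epb42 level. PBS replicate 3, lowest in haemoglobin, had the highest Slc4a1 and Car2 levels of its group. With the log2 ratio of globin to other counts as a covariate, added after seeing the data, the membrane list kept a median of 0.73 with 8 of 18 members higher at an unadjusted p under 0.05 (background 2.2%). The reticulocyte list had a median of 0.49 with 0 of 15. Slc4a1 was then at 1.46 and Hbb-bs at -0.14. Within series S3 alone (4 and 4 libraries) the medians were 0.86 for the membrane list, with 9 higher (background 3.84%), and 0.59 for the reticulocyte list, with 5 higher.

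The 25 genes called by DESeq2 held further genes of red cells, named here after their values were seen. Trim10 and Eif2ak1, both used in erythroid development (the second codes the haem-regulated kinase that slows globin synthesis), were called higher with Slc4a1, Tmod1, Car2 and Hbb-bt. Ucp2, a mitochondrial carrier, had 116.6 to 244.8 CPM with PBS and 296.0 to 712.8 CPM with IVIG, with no overlap. The antioxidant gene Gpx1 was at 1.02 ± 0.32 by edgeR, with DESeq2 adjusted p = 0.0372. The single gene called lower was Gm10288, a predicted gene. Leaving out 1 library moved the number called from 4 (without IVIG replicate 1) to 140 (without IVIG replicate 4), and 3 of 25 were kept without IVIG replicate 2, where 7 were called. Without PBS replicate 1, which like IVIG replicate 1 has the other treatment as deposited, 5 were called.

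The gene with the smallest p in edgeR was Tmbim6 (chromosome 15, 99392882 to 99410049), which codes a calcium channel-like protein of the endoplasmic reticulum that limits cell death. It had 20.8, 27.9, 33.8, 20.0 and 21.2 CPM with PBS and 101.5, 109.7, 81.1, 36.8 and 90.6 CPM with IVIG. All 5 IVIG libraries lay above all 5 PBS libraries, as for 0.412% of all genes, IVIG replicate 4 by little. The log2 change was 1.76 ± 0.33 (edgeR adjusted p = 0.746), 1.63 within series S3 and 0.63 under the deposited names. Without IVIG replicate 4 it was 1.95 and passed in edgeR (adjusted p = 0.0295).

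Other genes of the 10 with the smallest p differed in kind. Hyou1, a chaperone of the endoplasmic reticulum, had 1.14 to 1.93 CPM with PBS and 2.22 to 4.45 CPM with IVIG, with no overlap. Mcm7, a subunit of the replication helicase, had 1.34 to 1.64 and 2.28 to 5.03 CPM, also with no overlap. Adamts6, Tab3 and Cdadc1 were at 1.39, 1.25 and 1.24 on the log2 scale. Gm45713 (chromosome 7, 45125922 to 45136231) had 102.3, 100.1 and 60.7 CPM in IVIG replicates 2, 3 and 5 and at most 0.447 CPM in the other 7 libraries, and the log2 change under the deposited names was 6.28. That gene model overlaps Rpl13a and Flt3l on the same strand, so the split of reads among these genes is uncertain. Gapdh, often used as a reference, was at 1.19 ± 0.37, and at -0.08 under the deposited names.

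Interferon-stimulated genes held a small group with higher values. Type I interferons act through STAT proteins that bind a response element near the start of such genes. The promoters of 3 of these genes, and that of the main adult beta globin gene, are shown as examples that hold a match to sequences named below. Each line is the 200 bases before the start site in RefSeq on GRCm38.p6. Capitals mark matches, on either strand, to the response element core (GAAA, any 2 bases, GAAA), to AGATAA (bound by GATA factors) or to CCACACCCT (bound by erythroid KLF factors), and in Isg15 the matches overlap.
Oas3, chr5:120777660-120777859, minus strand: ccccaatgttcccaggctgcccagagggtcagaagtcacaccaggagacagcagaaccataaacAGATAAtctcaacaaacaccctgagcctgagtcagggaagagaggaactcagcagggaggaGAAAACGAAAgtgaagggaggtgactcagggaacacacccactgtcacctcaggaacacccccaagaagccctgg
Isg15, chr4:156200819-156201018, minus strand: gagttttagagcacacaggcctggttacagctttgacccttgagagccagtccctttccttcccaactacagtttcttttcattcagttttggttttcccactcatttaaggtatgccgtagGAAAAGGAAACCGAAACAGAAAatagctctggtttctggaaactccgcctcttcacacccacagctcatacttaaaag
Rsad2, chr12:26456453-26456652, minus strand: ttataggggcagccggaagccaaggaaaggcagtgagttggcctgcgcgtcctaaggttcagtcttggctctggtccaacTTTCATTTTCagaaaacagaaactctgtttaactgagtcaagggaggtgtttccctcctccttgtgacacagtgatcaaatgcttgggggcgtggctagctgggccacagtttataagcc
Hbb-bs, chr7:103827929-103828128, minus strand: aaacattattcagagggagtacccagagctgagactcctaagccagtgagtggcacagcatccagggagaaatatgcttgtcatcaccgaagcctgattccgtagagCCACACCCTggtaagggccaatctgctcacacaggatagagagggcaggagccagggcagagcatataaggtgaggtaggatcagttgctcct
Within 250 bases before the start, the response element core was found for 9 of the 18 listed interferon-stimulated genes with an entry, and for 3.04% of 27025 promoters. AGATAA was found for 3 of 13 red cell membrane genes, 1 of 12 haem synthesis genes, 2 of 12 reticulocyte genes and 2 of 9 globin genes. Over all promoters, AGATAA was found for 10.3% and CCACACCCT for 0.729%. Oasl2, Hbb-bt, Hba-a1, Hba-a2, Tmod1 and Add2 had no match to any of these sequences. A match is a description of the letters only.

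Of 22 interferon-stimulated genes tested, 5 were higher at an unadjusted p under 0.05 (background 4.04%) and 0 lower, while the median of 0.10 was close to that of all genes (-0.01). Oas3 (chromosome 5, 120753098 to 120777661), whose protein binds double-stranded viral RNA, had 1.5, 1.83, 1.70, 1.04 and 2.04 CPM with PBS. With IVIG it had 4.34, 4.75, 2.3, 3.20 and 7.42 CPM. The groups did not overlap, IVIG replicate 3 being nearest to PBS. The log2 change was 1.45 ± 0.33 (edgeR adjusted p = 0.746), 1.41 with the globin covariate, and 0.81 under the deposited names.

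Rsad2, the antiviral enzyme viperin, had 36.7, 88.0, 60.5, 21.9 and 59.9 CPM with PBS and 151.9, 291.2, 207.8, 45.1 and 119.5 CPM with IVIG. As for the red cell genes, IVIG replicate 4 lay within the PBS range and the other 4 above it. Its log2 change was 1.61 ± 0.48, 0.93 with the globin covariate and 0.50 under the deposited names. Isg15, a ubiquitin-like protein, was at 0.96 ± 0.33, Oasl2 at 1.26 ± 0.40 and Usp18, which removes ISG15 and was named after its value was seen, at 0.87 ± 0.33. Other widely used members were not on that side: Irf7 was at -0.28 and Stat2 at -0.53, also named after their values were seen. The list's median under the deposited names was 0.76, with 0 of 23 at an unadjusted p under 0.05.

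Fc gamma receptor genes were on the lower side with IVIG. The list held Fcgr1, Fcgr2b, Fcgr3, Fcgr4 and Fcer1g, the signalling chain shared by the activating receptors. All 5 had negative values (51.3% of all genes had), with a median of -0.74. At an unadjusted p under 0.05, 1 was lower (background 1.56%). Summed over the list, PBS replicates 1 to 5 had 250.0, 333.8, 306.3, 404.0 and 493.2 CPM reckoned on the counts outside globins. IVIG replicates 1 to 5 had 172.7, 181.7, 165.5, 254.0 and 219.9. IVIG replicate 4 passed only PBS replicate 1, and the other 4 IVIG libraries lay below every PBS library. The largest part of this sum was Fcer1g, with mean TMM-scaled CPM of 11.3 with PBS and 8.14 with IVIG. Next was Fcgr2b, at 3.15 and 1.91. For Fcer1g alone the groups overlapped, with 2 IVIG libraries below every PBS library. By the deposited names the list's median was 0.24, with 4 of 5 values positive.

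Fcgr2b (chromosome 1, 170958617 to 170976547), the inhibitory receptor of B cells and myeloid cells, had 3.69, 5.07, 2.34, 2.66 and 2.00 CPM with PBS. The IVIG libraries had 1.48, 2.65, 1.78, 1.74 and 1.88 CPM. All IVIG libraries but replicate 2 lay below every PBS library. Fcgr2b was at -0.74 ± 0.30 (edgeR adjusted p = 0.87, unadjusted p = 0.0277), and 0.24 under the deposited names.

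Fcgr3, an activating receptor of NK cells, monocytes and neutrophils, had 0.849, 2.59, 2.60, 2.66 and 2.14 CPM with PBS and 0.46, 0.977, 1.94, 0.990 and 1.68 CPM with IVIG. PBS replicate 1, of series S5, was the PBS library among the IVIG values, and it was also the lowest PBS library for Fcgr1 and Fcgr4. Fcgr3 was at -0.82 ± 0.39, the high-affinity receptor Fcgr1 at -1.06 ± 0.70, Fcgr4 at -0.59 ± 0.38 and the shared signalling chain Fcer1g at -0.47 ± 0.29. Fcgr1 and Fcgr4 rest on few counts, with means of 0.446 and 0.472 CPM with PBS and 0.165 and 0.343 CPM with IVIG. Fcgr1 had 1.24 CPM in PBS replicate 2, at most 0.371 CPM in the other PBS libraries and 0 in IVIG replicate 2. There, 1 count is worth 0.14 CPM. The deposited names gave 0.07 for Fcgr3, 2.20 for Fcgr1, 0.85 for Fcgr4 and -0.36 for Fcer1g. In series S3 alone (4 and 4 libraries), all 5 were lower at an unadjusted p under 0.05 (background 2.28%), with a median of -0.81. None of the 5 passed there either, and the edgeR adjusted p of Fcgr2b and Fcer1g was 0.798 and 0.805.

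**Figure D3:**
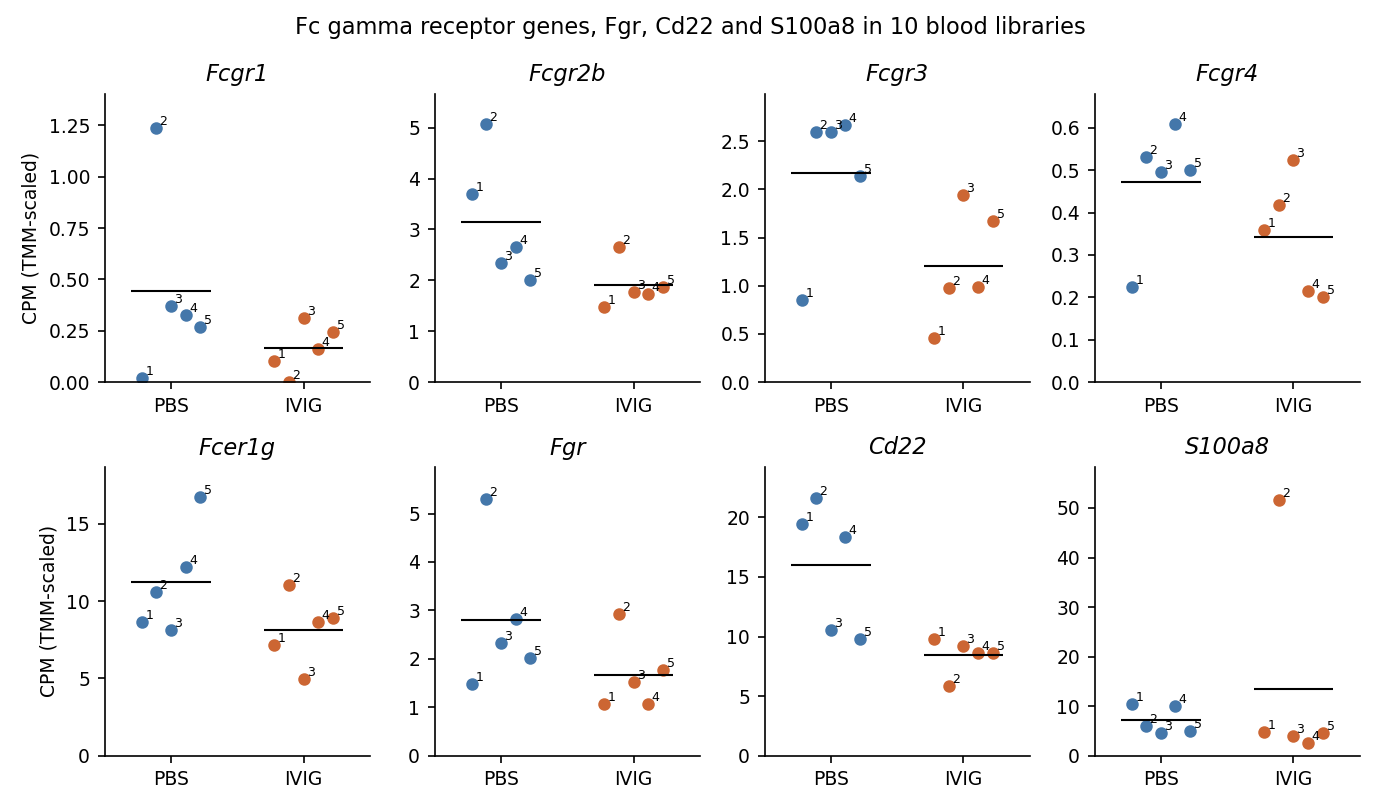
TMM-scaled CPM (linear axes from 0) of the 5 genes of the Fc gamma receptor list, Fgr, Cd22 and S100a8 in each blood library under the re-sorted names, with points numbered by replicate and a line at the group mean. For Cd22 all 5 IVIG libraries lie below all PBS libraries, and for S100a8 IVIG replicate 2 stands at 51.5 CPM above the other 9.

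Genes that act below these receptors had smaller values. Of 15 tested kinases, phosphatases and adaptors, 12 were negative (51.3% of all genes were), 0 were past an unadjusted p of 0.05 in either direction, and the median was -0.32. Fgr, a kinase of the Src family, was at -0.78 ± 0.38 and Syk, the kinase recruited by the activating receptors, at -0.50 ± 0.26. The deposited names gave a median of 0.07.

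Myeloid and platelet markers are given beside these receptors, since phagocytes carry most of them. Mature neutrophil genes had a median of 0.26 with all 10 libraries and of -0.84 without IVIG replicate 2, where 6 of 11 were lower at an unadjusted p under 0.05 (background 2.08%). Under the deposited names it was -2.92. S100a8, which codes a chain of calprotectin, had 10.4, 5.90, 4.50, 10.1 and 5.05 CPM with PBS and 4.80, 51.5, 3.98, 2.65 and 4.65 CPM with IVIG. The IVIG values other than that of replicate 2 lay below the middle PBS value of 5.90 CPM. S100a8 was at 0.88 ± 0.72, and at -0.84 without that library, and its partner S100a9 at 0.62 ± 0.68 and -0.95. The deposited names gave -3.91 and -4.46. The neutrophil markers Ly6g, Fpr1 and Fpr2 were too low to be tested. Monocyte genes had a median of -0.37, or -0.24 without IVIG replicate 2 and 0.42 under the deposited names. Of 17 tested, 13 were negative (51.3% of all genes were). Platelet genes had a median of -0.22, or 0.55 under the deposited names. Of 14 tested, 12 were negative (51.3% of all genes were) and 0 were past an unadjusted p of 0.05. The part of these cell types in the receptor values was not tested.

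The complement receptor C5ar1 was at -0.19 ± 0.61, with 2.51 CPM in IVIG replicate 2 and 0.187 to 0.733 CPM in the other IVIG libraries, against 0.501 to 0.984 CPM with PBS. Without that library it was at -1.05, and under the deposited names at -1.07. The cytokine gene Il1b was at 0.70 ± 0.47, with 9.35 CPM in IVIG replicate 2 and 0.950 to 4.29 CPM in the other IVIG libraries, against 1.85 to 2.75 CPM with PBS. It was at 0.11 without that library and at -2.25 under the deposited names. Tnf was not tested, with 29 counts in all 10 libraries. Cfp, which codes properdin of the alternative complement pathway, was at -0.89 ± 0.37, and at 0.20 under the deposited names.

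B cell genes were mostly on the lower side. Of 16 tested, 15 were negative (51.3% of all genes were) and 2 were lower at an unadjusted p under 0.05 (background 1.56%). The median was -0.42, or -0.30 under the deposited names. Cd22 (chromosome 7, 30865402 to 30880342), an inhibitory lectin of B cells that binds sialic acid and has been discussed as a target of IVIG, had 19.5, 21.6, 10.5, 18.4 and 9.83 CPM with PBS. The IVIG libraries had 9.81, 5.86, 9.21, 8.62 and 8.63 CPM. The groups did not overlap (0.201% of all genes had all IVIG libraries below all PBS libraries), but IVIG replicate 1 and PBS replicate 5 lay next to each other. Cd22 was at -0.92 ± 0.29 (edgeR adjusted p = 0.764), and -0.07 under the deposited names.

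The complement receptor gene Cr2 was at -0.60 ± 0.28. With the globin covariate the list's median was -0.12 and Cd22 was at -0.94. MHC class II genes, which B cells and other presenting cells express, had a median of -0.45 (-0.07 under the deposited names). Of 10 tested, 9 were negative (51.3% of all genes were). H2-DMb1, which loads peptides, was at -0.66 ± 0.29. Without IVIG replicate 2 the medians were -0.23 for B cell genes and -0.26 for MHC class II genes.

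T and NK cell genes were on the other side by less. Of 18 T cell genes 16 were positive (48.7% of all genes were) and 2 higher at an unadjusted p under 0.05 (background 4.04%). Their median was 0.35, or 0.02 under the deposited names. Of 16 NK and cytotoxic genes 14 were positive (48.7% of all genes were) and 4 higher at that unadjusted p (background 4.04%). Their median was 0.19, or 0.33 without IVIG replicate 2 and 0.19 under the deposited names. Klrb1c, the NK1.1 receptor, had 0.179, 0.295, 0.340, 0.312 and 0.771 CPM with PBS and 1.18, 0.279, 0.942, 0.830 and 0.984 CPM with IVIG. All IVIG libraries but replicate 2 lay above every PBS library, and the log2 change was 1.19 ± 0.41, or 0.64 under the deposited names. Klrb1c rests on few counts, since 1 count is worth 0.14 CPM in IVIG replicate 2 and 0.059 CPM in PBS replicate 2. The cytokine receptor gene Il2rb was at 0.89 ± 0.38.

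Regulatory T cell genes had a median of 0.88 over 6 tested members, all positive (48.7% of all genes were). At an unadjusted p under 0.05, 3 were higher (background 4.04%). Foxp3, the factor that defines these cells, had 0.134, 0.413, 0.217, 0.193 and 0.405 CPM with PBS. With IVIG it had 0.613, 0.698, 0.576, 0.589 and 0.358 CPM, and only IVIG replicate 5 lay within the PBS range. Foxp3 was at 1.07 ± 0.37 (edgeR adjusted p = 0.785), 0.96 with the globin covariate and 0.43 under the deposited names. Itgae, an integrin that holds lymphocytes in epithelia, was at 1.07 ± 0.35 and the factor gene Ikzf2 at 1.12 ± 0.38. In IVIG replicate 2, 1 count is worth 0.14 CPM, and in the other libraries 0.0134 to 0.0590 CPM. The 8 listed genes together had 36 to 297 counts per library, so these levels rest on few counts in every library. The deposited names gave the list a median of -0.11.

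**Figure D4:**
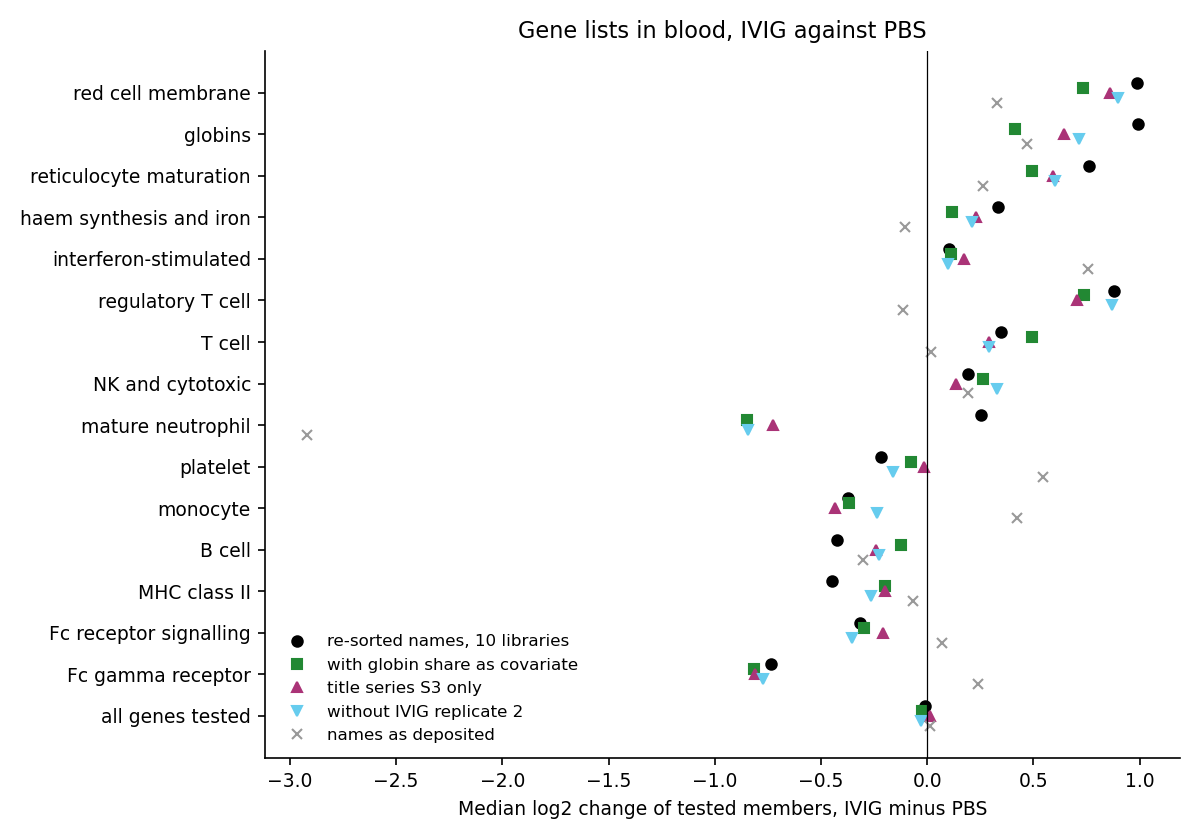
Median log2 change, IVIG minus PBS, of the tested members of 15 gene lists and of all genes tested, for the 10 libraries under the re-sorted names and under 4 other settings. Red cell membrane genes lie at 0.99 and Fc gamma receptor genes at -0.74 under the re-sorted names, and the mature neutrophil list changes sign without IVIG replicate 2.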

How the data were processed

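Total RNA of whole blood was enriched for poly(A) RNA and sequenced, per the labels' protocols. Kallisto 0.46.1 and the build GRCm38 are named in the submitters' processing notes, with no role given. The authors' deposited table holds 1 estimated count (expected count) per gene symbol and library, and its name says that these were scaled from TPM by length. The authors' summing, scaling tool and filters are not given in the sources used here. Values were rounded to whole numbers.

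The main test was edgeR 4.0.16 (R 4.3.3), quasi-likelihood, with TMM scaling, filterByExpr at its default minimum count of 10, and p-values adjusted by Benjamini-Hochberg over all genes tested. The SE is the log2 change divided by the square root of F. The condition field and title gave the groups, and the treatment field, which often differs from them, was not used. Alternatives were DESeq2 1.42.0, limma 3.58.1 voom, other scaling, filters, series and left-out libraries. Shares were tested with scipy 1.17.1. The procedure was tested on simulated data. Of 45 pairs of blood libraries 0 were identical.

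Named genes were the 10 of smallest p whose higher group averaged at least 1 CPM, at most 4 tested members of each of 36 lists by smallest p, the 5 genes of the Fc gamma receptor list, and S100a8, S100a9, C5ar1, Tnf and Il1b. The members and lists were chosen with earlier results of these data known. A few genes that the rule takes are not reported here.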

Additional observations from a re-analysis of the deposited data

Results flagged for a closer look

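The sets of 5 blood libraries examined were named genes outside the globins, chain shares, haemoglobin share and counts outside globins in each group. Genes named after their values were seen were left out. Of 124 sets, 17 held a library far from the other 4. Chance flags about 1 in 20 if values are normal and sets independent. These sets share the same 10 libraries and many values are low CPM, so that rate is only a rough guide. IVIG replicate 2 was the library set apart in 7. There, Blk had 1.68 CPM against 6.24 to 7.61, C5ar1 had 2.51 CPM against 0.187 to 0.733, Oasl2 had 6.56 CPM against 1.63 to 2.98, S100a8 had 51.5 CPM against 2.65 to 4.80. Also in that library, S100a9 had 61.0 CPM against 4.30 to 6.95, Slc40a1 had 23.6 CPM against 0.147 to 6.89, Ube2c had 90.6 CPM against 10.1 to 22.1. In IVIG replicate 4, Fech had 105.4 CPM against 201.7 to 233.0. In IVIG replicate 5, Itgae had 0.917 CPM against 0.279 to 0.46. In PBS replicate 1, Fcgr3 had 0.849 CPM against 2.14 to 2.66. In PBS replicate 2, Blk had 6.02 CPM against 8.56 to 9.56, Epb42 had 2.83 CPM against 0.922 to 1.39, Fcgr1 had 1.24 CPM against 0.0224 to 0.371, Itgae had 0.118 CPM against 0.246 to 0.294. In PBS replicate 4, Slc40a1 had 1.62 CPM against 0.177 to 0.559. In PBS replicate 5, Klrb1c had 0.771 CPM against 0.179 to 0.340, Themis had 1.39 CPM against 0.295 to 0.603.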

How the results depend on the processing

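No paired analysis was possible because the IVIG and PBS titles of blood share no animal number. Against 0 genes by edgeR, DESeq2 called 25, scaling by library totals alone 3, no expression filter 11 and the 5 columns with the same sample under both orders 2. Leaving out each library gave 0 to 3 in edgeR, with 3 without IVIG replicate 4 and 1 without PBS replicate 2 or PBS replicate 4. DESeq2 leaving out each library, added after seeing the data, called 4 to 140, and on series S3 alone, added likewise, 4. The other scalings tried, voom, the series settings, the globin covariate and the deposited names gave 0. Signs were checked for 62 tested genes of the text, and genes named after their values were seen were not among them. For 53 of the 62, no alternative on the re-sorted names gave the opposite sign. The deposited names set unlike mixes of tissue against each other, so treatment and tissue cannot be told apart there. Under the deposited names the opposite sign was found for Cdadc1 at -0.22, Hba-a1 at -0.14, Hmox1 at 0.10, Themis at -0.16, Ikzf2 at -0.50, Fcgr1 at 2.20, Fcgr2b at 0.24, Fcgr3 at 0.067, Fcgr4 at 0.85, Syk at 0.10, Cfp at 0.20, Il1b at -2.25, S100a8 at -3.91, S100a9 at -4.46, H2-DMb1 at 0.047, Gapdh at -0.077, Top2a at 0.14 and Treml4 at -0.41. Scaling by library totals alone, which moved the median of all genes to -0.61, put Fech at -0.084, Hba-a1 at -0.014, Hbb-bs at -0.046, Il1b at -0.61, Tnfaip3 at -0.086, S100a8 at -0.95, S100a9 at -1.13 and Cat at -0.13. The globin covariate, added after seeing the data, put Hbb-bs at -0.14, Il1b at -0.22, S100a8 at -0.84 and S100a9 at -0.89. In the 5 columns with 1 name under both orders the sign was opposite for Il1b at -0.47, S100a8 at -0.85 and S100a9 at -1.08. Limma voom put S100a8 at -0.25 and S100a9 at -0.39. Series S3 alone put S100a8 at -0.64 and S100a9 at -0.81. Series as a covariate put S100a8 at -0.15 and S100a9 at -0.33. DESeq2 put C5ar1 at 0.0097. Leaving out each library gave C5ar1 values from -1.05 to 0.16, S100a8 from -0.84 to 1.15 and S100a9 from -0.95 to 0.87. The haemoglobin difference ran from 1.07 to 3.35 points over the left-out libraries. Few counts outside globins limit every low gene, and without a stated column order the treatment of each column remains inferred.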

Other observations

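Genes of the cell cycle had no common direction in blood. Of 13 tested, 1 was higher (background 4.04%) and 1 lower (background 1.56%) at an unadjusted p under 0.05, each a single gene and near its background. The median was -0.19, or -0.02 without IVIG replicate 2 and 0.21 under the deposited names. Top2a, which untangles DNA in dividing cells, had 0.223 to 0.826 CPM with PBS and 0.102 to 0.279 CPM with IVIG, a log2 change of -1.32 ± 0.45. It rests on few counts, since 1 count is worth 0.051 CPM in IVIG replicate 1 and 0.14 CPM in IVIG replicate 2. Ube2c, an enzyme of mitotic exit, was at 1.46 ± 0.51 (0.62 without IVIG replicate 2) and had its highest value, 90.6 CPM, in IVIG replicate 2.

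Iron release and haem breakdown held genes with opposite values. Slc40a1, the iron exporter ferroportin, was at 3.22 ± 1.18 (1.60 without IVIG replicate 2 and 0.10 under the deposited names), with 23.6 and 6.89 CPM in IVIG replicates 2 and 5 and 0.147 to 1.62 CPM in the other 8 libraries. Hmox1, which breaks down haem, was at -1.39 ± 0.53, and at 0.10 under the deposited names. Treml4, a receptor of patrolling monocytes, was at 1.15 ± 0.45 while most other monocyte genes had negative values. Catalase (Cat) was at 0.84 ± 0.33 and Tnfaip3, a brake on NF-kB, at 0.88 ± 0.35.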
